A study of Arabidopsis thaliana with 24 samples.

Results

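UDP-glycosyltransferases of Arabidopsis thaliana, the UGT genes, were followed in leaves of salt-treated and untreated wild types and transgenic lines. A gene was taken into the family where its symbol or a synonym reads UGT, a number and a letter, and where a probe set of the array belongs to that gene alone. This gave 50 genes with 1 probe set each, of 22746 probe sets tested. They fall into 12 subfamilies by number: UGT71 with 9 genes, UGT76 with 8, UGT73 with 7, UGT72, UGT84 and UGT85 with 5 each, UGT74 and UGT78 with 3 each, UGT80 with 2, and UGT79, UGT87 and UGT88 with 1 each. The symbols of 3 genes came from a synonym: UGT72B1, UGT79B6 and UGT80A2. A further 14 genes with such names were not analysed. Of these, 9 have no probe set in the gene table used, 4 share theirs with another gene (UGT71D1, UGT73B2, UGT73B3 and UGT89B1), and the anthocyanin gene UGT79B1 (UF3GT) was left out by the selection rule.

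UGTs move a sugar, mostly glucose, from a UDP-sugar onto a small acceptor molecule. The sugar makes the acceptor more soluble, often ends its activity, and allows its storage in the vacuole, from which beta-glucosidases can release it again. In Arabidopsis leaves the acceptors include flavonols, precursors of lignin and sinapate esters, glucosinolate precursors, sterols, hormones such as abscisic acid, auxin, cytokinin and salicylic acid, and foreign compounds. The subfamilies group enzymes by sequence, and members of 1 subfamily can act on unlike acceptors.

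The leaf samples came from 3 transgenic lines and their wild types. The CBF3 line is in the Ws background and is compared with Ws. The M6PR line is in Col-0, here Col. The SOS1 line is in Col(gl), here Colgl, and is compared with that wild type. CBF3 is a transcription factor of the cold response, M6PR is mannose-6-phosphate reductase, a mannitol synthesis enzyme from celery, and SOS1 exchanges sodium for protons at the plasma membrane. Neither the promoter driving a transgene nor whether a line is a single clone is given in the labels. Each genotype was grown in short days at 0 mM and at 100 mM NaCl, the latter reached from day 14 in steps of 50 mM every 2 days. Leaves that were developed but not senescent were taken on day 20, when salt had been given for 6 days, with at least 15 seedlings pooled per sample. The labels call the 2 samples of each of the 12 groups biological replicates. All values below are log2 signals as deposited, replicate 1 before replicate 2, and all differences are differences of log2 signal with their SE (n = 2 arrays per group).

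RCA and PSAN, the 2 of 12 listed leaf (photosynthesis) markers with a single-gene probe set, stood at the 99.7th percentile of signal or above on every array. Over the 50 UGT genes, replicate differences within a group had an SD from 0.16 in Col at 0 mM to 0.61 in SOS1 at 0 mM. A low dap spike-in control set apart replicate 1 of Ws at 100 mM and replicate 1 of Col at 100 mM, with means of 4.86 and 5.03 against 7.33 to 9.52 on the other arrays. For the comparisons of 2 groups and the interactions that rest on these arrays, counts are given with and without them. Other counts, such as that over all 12 groups, are not given without both. The gene table pairs no probe set with the transgenes, so the labels were not checked by them.

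The UGT family varied widely among the 12 groups. A test for any difference among them called 23 of 50 genes (46%), against 37.6% of all probe sets, where called means a limma p-value adjusted over all 22746 probe sets below 0.05. The range of a gene's group means had a median of 1.06 over the family and 0.75 over all probe sets. In the 12 comparisons of 2 groups, 21 genes (42%) were called at least once, against 31.2% of all probe sets. These gave 45 calls, 16 upward and 29 downward. The other 29 genes were not called in any of the 12 comparisons, and 22 of those 29 have a mean signal among the lowest 40% of probe sets. Detection calls were not used, so for the 26 members below that level a difference has no check against background.

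**Figure D1:**
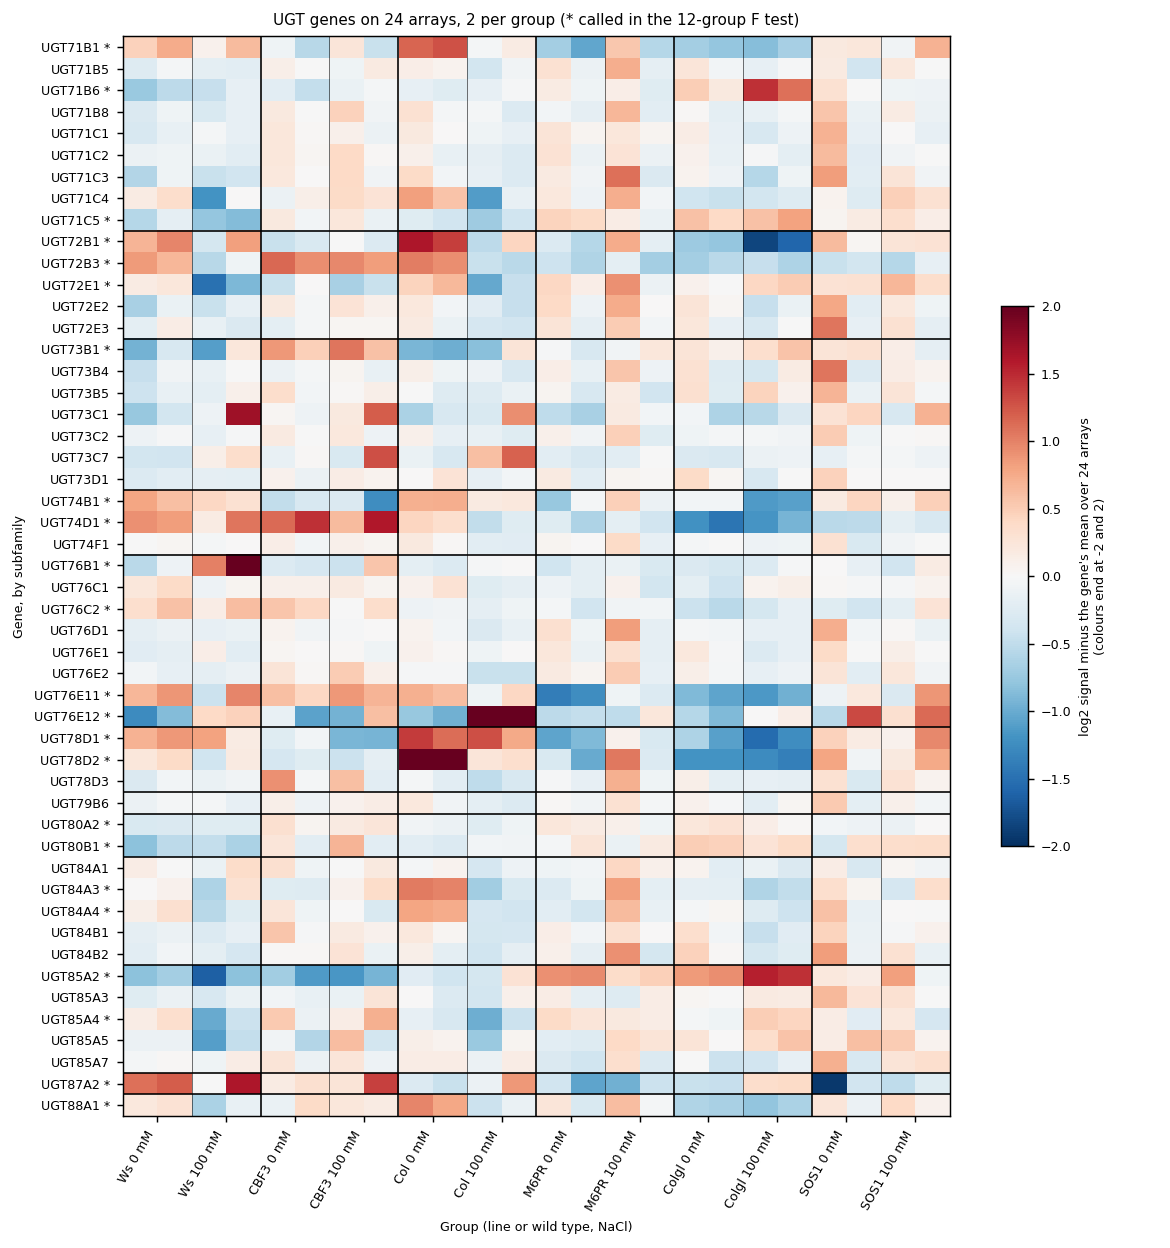
Signal of the 50 UGT genes (rows, by subfamily) on the 24 arrays (columns, 2 per group) as the log2 signal minus the gene's mean over all arrays; colours end at -2 and 2, and an asterisk marks the 23 genes called in the test over 12 groups. UGT78D2 and UGT72B1 are deepest red in Col at 0 mM, and UGT76E12 is in Col at 100 mM.

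The share of UGT genes called differed between comparisons. At 100 mM, 7 of 50 (14%) were called in CBF3 against Ws, where 3.73% of all probe sets were, and 7 (14%) in SOS1 against Colgl, where 3.13% were. At 0 mM, 12 (24%) were called in M6PR against Col, against 10.3% of all, and 3 (6%) in CBF3 against Ws, against 6.79%. Salt in Col called 11 (22%), close to the 20.9% of all probe sets, and salt in Ws called 4 (8%), against 4.71%. M6PR against Col at 100 mM called 1 (2%), against 0.528%.

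In the other 5 comparisons no UGT gene was called by limma. SOS1 against Colgl at 0 mM called 1.24% of all probe sets. At an unadjusted p below 0.05 it had 12 members and 14.2% of all probe sets. Salt in Colgl called 0.132% of all probe sets, salt in M6PR 0.541%, salt in CBF3 0.00879% and salt in SOS1 0%. At an unadjusted p below 0.05, salt in Colgl had 7 members and 5.3% of all probe sets, salt in M6PR 6 and 10.2%, salt in CBF3 1 and 3.27%, and salt in SOS1 0 and 7.45%.

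**Figure D2:**
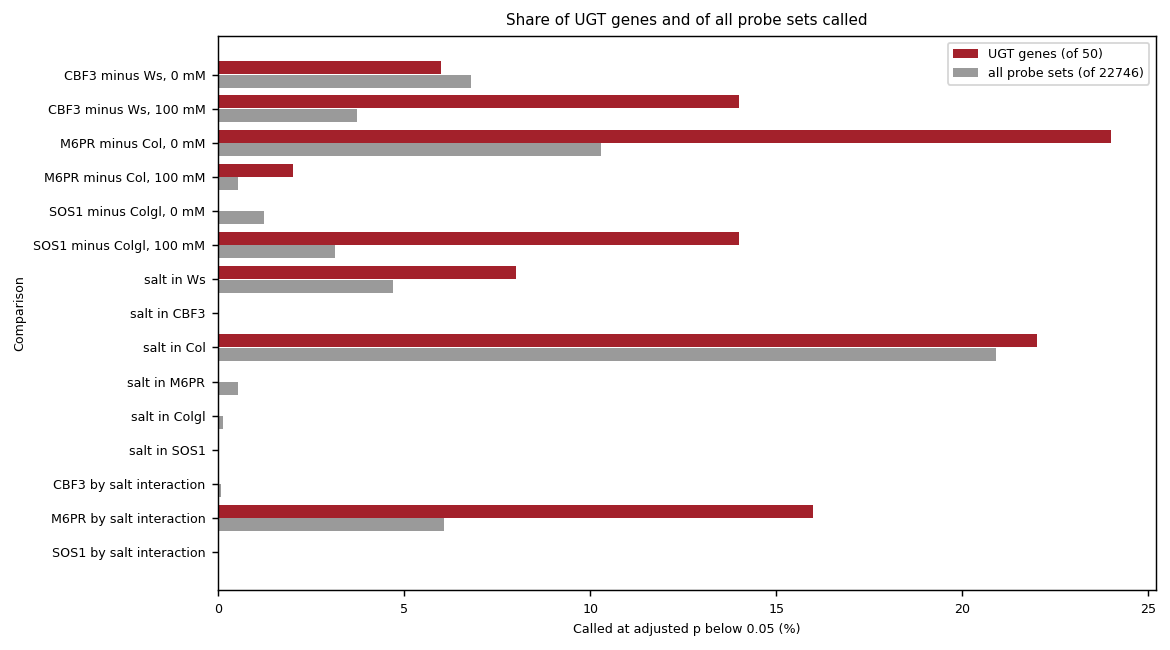
Percent of the 50 UGT genes (red) and of all 22746 probe sets (grey) called at an adjusted p below 0.05, as bars for 15 comparisons. The red bar is the longer by the most points in M6PR against Col at 0 mM (24% against 10.3%).

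The flavonol glycosyltransferases of subfamily UGT78 held the largest difference of a line from its wild type, that of UGT78D2 in M6PR. UGT78D1 adds rhamnose and UGT78D2 adds glucose to the 3-position of flavonols; UGT78D2 also acts on anthocyanidins. In M6PR at 0 mM both were lower than in Col: UGT78D2 fell by 2.71 ± 0.36 (6.54-fold, adjusted p = 0.00038) and UGT78D1 fell by 2.23 ± 0.28 (4.68-fold, adjusted p = 0.00027). In SOS1 at 100 mM both were higher than in Colgl, UGT78D1 by 1.92 ± 0.28 (3.80-fold, adjusted p = 0.0020) and UGT78D2 by 1.79 ± 0.36 (3.45-fold, adjusted p = 0.015). In CBF3 at 100 mM UGT78D1 was lower than in Ws, with a log2 difference of -1.41 ± 0.28 (adjusted p = 0.013), while UGT78D2 differed by -0.20 and was not called. That UGT78D1 difference ran from -1.72 to -1.09 over the alternatives and single arrays left out, and its call was not kept throughout. Among the alternatives it was lost without the 2 arrays low in dap. Salt in Col lowered UGT78D2 by 3.40-fold, a log2 difference of -1.76 ± 0.36 (adjusted p = 0.0043), while UGT78D1 differed by -0.23 and was not called.

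The signal of UGT78D1 was 8.87 and 9.06 in Ws at 0 mM and 8.99 and 8.35 at 100 mM, and in CBF3 it was 7.95 and 8.14, then 7.27 and 7.26. In Col it was 9.58 and 9.30 at 0 mM and 9.48 and 8.94 at 100 mM, and in M6PR 7.14 and 7.30, then 8.28 and 7.88. In Colgl it was 7.57 and 7.10 at 0 mM and 6.64 and 6.94 at 100 mM, and in SOS1 8.64 and 8.35, then 8.28 and 9.15. Every array of M6PR therefore lay below every array of Col, and every array of SOS1 above every array of Colgl, at either salt level. At 0 mM the SOS1 difference of 1.16 ± 0.28 missed the threshold (adjusted p = 0.062). At 100 mM the M6PR difference of -1.13 ± 0.28 missed it too (adjusted p = 0.081).

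UGT78D2 had its highest signal in Col at 0 mM, 10.28 and 10.37, where salt brought it to 8.51 and 8.61. In M6PR it was 7.97 and 7.25 at 0 mM and 9.32 and 7.99 at 100 mM. In Colgl it was 7.07 and 7.08 at 0 mM and 7.02 and 6.90 at 100 mM, and in SOS1 9.05 and 8.20, then 8.46 and 9.02. The untreated Col arrays stood above all the others, and the Colgl arrays at both salt levels lay below all arrays of the other genotypes. In Ws the gene was at 8.50 and 8.66, then 7.87 and 8.45, and in CBF3 at 7.93 and 8.03, then 7.84 and 8.09. At 0 mM the SOS1 difference of 1.55 ± 0.36 had an adjusted p of 0.052. UGT78D3, which adds arabinose to flavonols, was not called in any comparison.

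**Figure D3:**
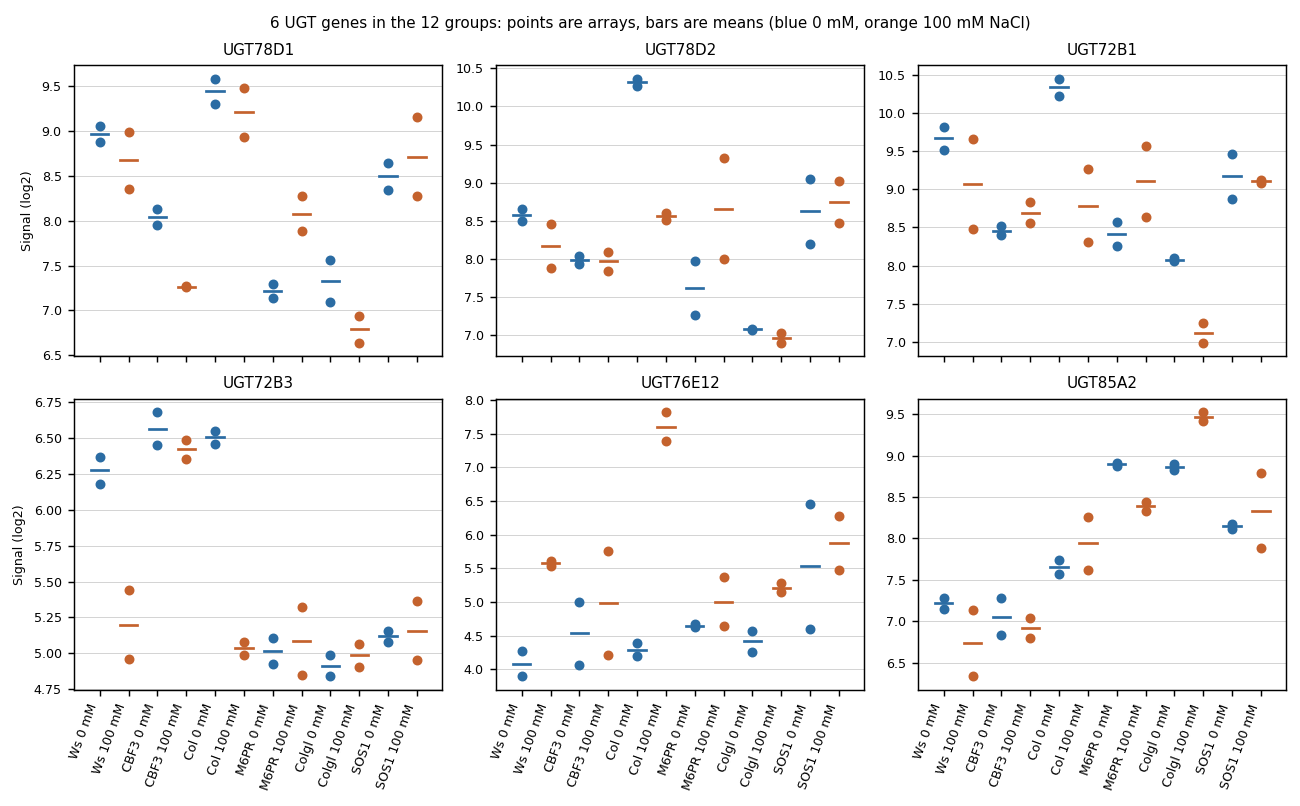
Log2 signal of 6 UGT genes in the 12 groups; points are arrays (2 per group), bars are group means, blue is 0 mM and orange 100 mM NaCl. UGT78D2 and UGT72B1 are highest in Col at 0 mM, with means of 10.32 and 10.33, and UGT76E12 is highest in Col at 100 mM, with a mean of 7.61.

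Subfamily UGT72 holds enzymes that glucosylate precursors of lignin (UGT72E1, UGT72E2 and UGT72E3) and UGT72B1, which is known for conjugating chlorinated pollutants. It had the most calls, 9 over 3 of its 5 genes, 2 upward and 7 downward. Of all probe sets, 31.2% were called at least once. UGT72B1 was lower in M6PR than in Col at 0 mM by a log2 difference of -1.92 ± 0.37 (adjusted p = 0.0035), and higher in SOS1 than in Colgl at 100 mM by 1.99 ± 0.37 (adjusted p = 0.0095). Salt in Col lowered it by a log2 difference of -1.55 ± 0.37 (adjusted p = 0.0090). That salt call was lost without the 2 arrays low in dap. The fall ran from -2.03 to -1.07 over the alternatives and single arrays left out. The SOS1 call was kept under every alternative but not with every single array left out. Arrays of UGT72B1 read 10.45 and 10.22 in Col at 0 mM and 8.30 and 9.26 at 100 mM, the 8.30 on an array low in dap. In M6PR they read 8.57 and 8.26 at 0 mM and 9.57 and 8.64 at 100 mM. In Colgl they read 8.10 and 8.06, then 6.99 and 7.25, and in SOS1 9.47 and 8.88, then 9.09 and 9.12. In Ws they read 9.52 and 9.82, then 8.47 and 9.66, and in CBF3 8.40 and 8.52, then 8.83 and 8.56. All SOS1 arrays lay above all Colgl arrays, and the untreated Col arrays were the highest of the 24.

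UGT72B3 had the smallest p in the test over 12 groups. Its arrays fell into a high and a low range with none between 5.44 and 6.18. Signals were high in Ws at 0 mM (6.37 and 6.18), in CBF3 at 0 mM (6.68 and 6.45) and 100 mM (6.49 and 6.35), and in Col at 0 mM (6.55 and 6.46). They were low in Ws at 100 mM (4.96 and 5.44), Col at 100 mM (5.08 and 4.99), M6PR (5.11 and 4.93, then 5.33 and 4.85), Colgl (4.84 and 4.99, then 5.07 and 4.91) and SOS1 (5.08 and 5.16, then 4.95 and 5.36). Salt lowered it in Ws (-1.08 ± 0.19, adjusted p = 0.0050) and in Col (-1.47 ± 0.19, adjusted p = 0.00030), and in CBF3 the log2 difference with salt was -0.14 and not called. In CBF3 it was 2.33-fold higher than in Ws at 100 mM (1.22 ± 0.19, adjusted p = 0.0016), and in M6PR 2.80-fold lower than in Col at 0 mM (-1.49 ± 0.19, adjusted p = 0.00025). The difference between the salt responses of CBF3 and Ws, 0.93 ± 0.26, had the smallest p of the family in that interaction and was not called (adjusted p = 0.24). UGT72E1, which acts on coniferaldehyde and sinapaldehyde, fell with salt in Ws (-1.39 ± 0.28, adjusted p = 0.013) and in Col (-1.28 ± 0.28, adjusted p = 0.0062). Without the arrays low in dap neither fall was called (adjusted p = 0.13 in Ws and 0.071 in Col). UGT72E2 and UGT72E3 were called in no comparison.

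Subfamily UGT84 includes enzymes that make glucose esters of hydroxycinnamic acids, the sinapate precursors among them. UGT84A3 and UGT84A4, neighbours on chromosome 4, moved in the same comparisons. UGT84A3 read 9.15 and 9.10 in untreated Col, 7.41 and 7.81 in salt-treated Col, and 7.84 and 8.03 in untreated M6PR. It fell with salt in Col (-1.52 ± 0.31, adjusted p = 0.0043) and was lower in M6PR than in Col at 0 mM (-1.19 ± 0.31, adjusted p = 0.022). UGT84A4 read 6.26 and 6.22, 5.13 and 5.08, and 5.26 and 5.11 in the same groups, with differences of -1.13 ± 0.24 (adjusted p = 0.0052) and -1.06 ± 0.24 (adjusted p = 0.010). For both genes the untreated Col arrays were above those of both other groups. UGT84A1 and the auxin gene UGT84B1, with its neighbour UGT84B2, were not called. Of the 6 measured genes listed for phenylpropanoids, 3 were called at least once, all of them downward, against 31.2% of all probe sets called at least once in either direction.

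UGT74B1, which glucosylates thiohydroximates in glucosinolate synthesis, was called in 4 comparisons, more than any other member but UGT72B3. It was lower in CBF3 than in Ws at 0 mM (-1.10 ± 0.28, adjusted p = 0.026) and at 100 mM (-1.13 ± 0.28, adjusted p = 0.035), and lower in M6PR than in Col at 0 mM (-1.11 ± 0.28, adjusted p = 0.016). It was higher in SOS1 than in Colgl at 100 mM (1.39 ± 0.28, adjusted p = 0.013). Both CBF3 calls were lost in a separate fit per background, and that at 100 mM also with each array centred on its median. The CBF3 difference at 100 mM ran from -1.60 to -0.65 over the alternatives and single arrays left out. The arrays read 10.33 and 10.15 in Ws at 0 mM and 9.97 and 9.86 at 100 mM, and in CBF3 9.06 and 9.24, then 9.26 and 8.31. In Col they read 10.26 and 10.27, then 9.74 and 9.77, and in M6PR 8.79 and 9.51, then 10.03 and 9.43. In Colgl they read 9.49 and 9.49, then 8.43 and 8.47, and in SOS1 9.73 and 9.99, then 9.65 and 10.03. The 2 salt-treated Colgl arrays were low, with a log2 difference of -1.04 from untreated Colgl that was not called (adjusted p = 0.33).

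UGT74D1 acts on auxin and its oxidised form. Its p was the smallest but 3 in the test over 12 groups but was called in none of the 12 comparisons of 2 groups. In Ws it read 8.70 and 8.63 at 0 mM and 7.97 and 8.86 at 100 mM, and in CBF3 8.94 and 9.26, then 8.43 and 9.40. In Col it read 8.22 and 8.13, then 7.30 and 7.56, and in M6PR 7.55 and 7.19, then 7.60 and 7.41. In Colgl it read 6.58 and 6.33, then 6.62 and 6.86, and in SOS1 7.25 and 7.27, then 7.60 and 7.48. The Colgl arrays were the lowest of the 24, so the gene differed between wild types: it was higher in Col than in Colgl at 0 mM by 1.72 ± 0.28 (adjusted p = 0.00090). The neighbouring cytokinin genes UGT76C1 and UGT76C2 were not called in the 12 comparisons either, and none of the 3 measured cytokinin genes was.

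The abscisic acid glucosyltransferases UGT71B6 and UGT71C5 belong to subfamily UGT71. There 4 of 9 genes were called at least once, against 31.2% of all probe sets. UGT71B6 read 5.94 and 5.58 in Colgl at 100 mM, above all other arrays, and 4.40 and 4.39 in SOS1 at 100 mM. That difference of -1.37 ± 0.18 had the smallest adjusted p of the family in SOS1 against Colgl (0.00078). At 0 mM it read 4.98 and 4.68 in Colgl and 4.79 and 4.48 in SOS1, which overlap. Elsewhere it read 3.75 and 3.95 in Ws, then 4.02 and 4.33 with salt, and 4.27 and 4.01 in CBF3, then 4.35 and 4.44. In Col it read 4.32 and 4.25, then 4.32 and 4.46, and in M6PR 4.65 and 4.40, then 4.62 and 4.24. The signal of this probe set is among the lowest 40% over all arrays. The difference between the salt responses of SOS1 and Colgl, -1.17 ± 0.25, had the smallest p of the family there and was not called (adjusted p = 0.93). In that interaction UGT74B1 came second, with 1.03 ± 0.39.

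UGT71C5 was higher in CBF3 than in Ws at 100 mM (0.86 ± 0.17, adjusted p = 0.013) and higher in M6PR than in Col at 0 mM (0.73 ± 0.17, adjusted p = 0.012). It read 6.62 and 7.01 in Ws, then 6.42 and 6.33 with salt, and 7.38 and 7.13 in CBF3, then 7.41 and 7.06. In Col it read 6.95 and 6.80, then 6.48 and 6.79, and in M6PR 7.64 and 7.57, then 7.34 and 7.06. In Colgl it read 7.78 and 7.58, then 7.78 and 8.00, and in SOS1 7.24 and 7.35, then 7.53 and 7.33. Both lines thus stood above their wild types on every array, whereas SOS1 arrays lay below those of Colgl, by -0.46 at 100 mM without a call. The CBF3 call of UGT71C5 was lost in a separate fit and without the 2 arrays low in dap. Its M6PR call was kept under every alternative but lost with any 1 array left out. Of the rest of the subfamily, UGT71B1 fell with salt in Col (-1.16 ± 0.33, adjusted p = 0.023) and was lower in M6PR than in Col at 0 mM (-2.08 ± 0.33, adjusted p = 0.0011). Its arrays read 7.61 and 7.71 in untreated Col, 6.41 and 6.60 with salt, and 5.75 and 5.40 in untreated M6PR. UGT71C4 fell with salt in Col (-1.33 ± 0.35, adjusted p = 0.014), from 9.80 and 9.56 to 7.86 and 8.84, the 7.86 on an array low in dap. Over the alternatives and single arrays left out, this fall ran from -1.82 to -0.84, and that of UGT71B1 with salt from -1.32 to -1.06. Neither of these salt calls was kept throughout, and both were lost without the 2 arrays low in dap. That of UGT71B1 was also lost in a separate fit.

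Subfamily UGT76 gave the largest rises with salt. UGT76E12, from a group of enzymes known for acting on flavonols and on hydroxyjasmonate, read 4.39 and 4.19 in Col at 0 mM and 7.40 and 7.82 at 100 mM. The rise of 3.32 ± 0.53 is 9.98-fold (adjusted p = 0.0012). The mean signal of this probe set is among the lowest 40%, so its untreated level has no check against background. In M6PR UGT76E12 read 4.63 and 4.67 at 0 mM and 4.65 and 5.37 at 100 mM. With salt it was thus lower than in Col by a log2 difference of -2.60 ± 0.53 (adjusted p = 0.045), the only call of the family in that comparison. That call was lost with quantile normalization, with array weights and without the 2 arrays low in dap. It was not kept with every single array left out, and the difference ran from -2.96 to -2.24 over all these fits. The salt difference was positive in all 6 genotypes, at 1.50 in Ws, 0.80 in Colgl, 0.45 in CBF3, 0.36 in M6PR and 0.34 in SOS1, though it was called only in Col among them. Averaged over the 6 genotypes it was 1.13 ± 0.22 (adjusted p = 0.0055). SOS1 arrays were uneven, with 4.60 and 6.46 at 0 mM and 5.47 and 6.27 at 100 mM.

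UGT76B1 glucosylates salicylic acid and related defence signals. It rose with salt in Ws, from 3.67 and 4.10 to 5.22 and 7.15, by 2.30 ± 0.43 (4.92-fold, adjusted p = 0.0084). In CBF3 at 100 mM it read 3.77 and 4.75, lower than in Ws by a log2 difference of -1.92 ± 0.43 (adjusted p = 0.023). With 1 array left out that difference ran from -2.89 to -0.96 and was called in 2 of 4 fits, and it was not called in a separate fit per background (adjusted p = 0.15). On the arrays of the 4 other genotypes it stayed between 3.81 and 4.37. The 2 salt-treated Ws arrays differ by more than those of any other group, and the rise ranged from 1.33 to 3.26 over the alternatives and single arrays left out. The difference between the salt responses of CBF3 and Ws was -1.93 ± 0.61 and not called (adjusted p = 0.28). The other 4 measured genes listed for salicylate and pathogen response were not called.

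UGT76E11, linked to flavonoid glycosides and stress tolerance, was lower in M6PR than in Col at 0 mM by a log2 difference of -1.98 ± 0.37 (3.94-fold, adjusted p = 0.0029). It read 8.29 and 8.21 in Col, then 7.50 and 7.99 with salt, and 6.21 and 6.34 in M6PR, then 7.50 and 7.31. In Colgl it read 6.70 and 6.53, then 6.44 and 6.62, and in SOS1 7.49 and 7.80, then 7.30 and 8.47. In Ws it read 8.26 and 8.47, then 7.16 and 8.56, and in CBF3 8.19 and 8.01, then 8.45 and 8.27. The untreated M6PR arrays were the lowest of the 24, and all SOS1 arrays lay above all Colgl arrays. UGT76E11 was 1 of 4 measured genes whose overexpression has been linked to salt or drought tolerance, and the other 3, UGT76C2, UGT85A5 and UGT87A2, were not called in the 12 comparisons.

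UGT85A2 ran against most members. It was higher in M6PR than in Col at 0 mM (1.24 ± 0.28, adjusted p = 0.0099) and lower in SOS1 than in Colgl at 100 mM (-1.14 ± 0.28, adjusted p = 0.041). Neither call was kept with every single array left out. Over the alternatives and single arrays left out, the M6PR difference ran from 1.16 to 1.33 and the SOS1 difference from -1.59 to -0.69. The SOS1 difference was not called in a separate fit (adjusted p = 0.13). UGT85A2 read 7.74 and 7.57 in Col, then 7.62 and 8.26 with salt, and 8.87 and 8.92 in M6PR, then 8.34 and 8.44. In Colgl it read 8.82 and 8.90, then 9.52 and 9.42, and in SOS1 8.17 and 8.12, then 8.79 and 7.88. In Ws it read 7.14 and 7.29, then 6.33 and 7.14, and in CBF3 7.28 and 6.83, then 6.80 and 7.04. The arrays of Ws and CBF3 lay below those of the other 4 genotypes. UGT85A4 was 2.22-fold higher in CBF3 than in Ws at 100 mM (1.15 ± 0.26, adjusted p = 0.025), where salt had lowered it in Ws from 6.73 and 6.92 to 5.58 and 6.14 (-0.96 ± 0.26, adjusted p = 0.049). The CBF3 arrays read 7.10 and 6.47 without salt and 6.73 and 7.29 with it. The difference between the salt responses, 1.19 ± 0.37, was not called (adjusted p = 0.28). Both calls of UGT85A4 were lost in a separate fit and without the 2 arrays low in dap. Its salt call was also lost under quantile normalization and with the replicate block.

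The sterol glucosyltransferase gene UGT80A2 was slightly higher in CBF3 than in Ws at 0 mM (0.49 ± 0.11, adjusted p = 0.017) and at 100 mM (0.44 ± 0.11, adjusted p = 0.041). Its arrays read 7.79 and 7.81, then 7.86 and 7.86, in Ws and 8.42 and 8.15, then 8.27 and 8.34, in CBF3. The difference at 100 mM lost its call under 5 of 7 alternatives and with any 1 array left out, and that at 0 mM under 3 of 7 and with 3 of 4 arrays. UGT80B1, the other sterol gene, was not called. UGT73B1 was higher in CBF3 than in Ws at 0 mM (1.31 ± 0.38, adjusted p = 0.049), at 7.42 and 7.02 against 5.59 and 6.22, a call lost with any 1 array left out and under quantile normalization, centring or a separate fit. UGT73C7 rose with salt in Col (1.12 ± 0.33, adjusted p = 0.026), from 4.46 and 4.29 to 5.21 and 5.78, and these were the only calls in the 7 genes of UGT73. UGT88A1 read 11.57 and 11.37 in untreated Col, 10.17 and 10.46 with salt and 10.84 and 10.28 in untreated M6PR, with differences of -1.16 ± 0.25 (adjusted p = 0.0052) and -0.91 ± 0.25 (adjusted p = 0.028). In SOS1 at 100 mM it was higher than in Colgl by 0.95 ± 0.25 (adjusted p = 0.049). That call was lost under quantile normalization, centring, a separate fit or the replicate block. It was not kept with single arrays left out, and the difference ran from 0.79 to 1.11 over all these fits. UGT87A2, with a range of 2.31 between group means, was not called in the 12 comparisons, and its SOS1 arrays at 0 mM read 6.80 and 8.36.

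**Figure D4:**
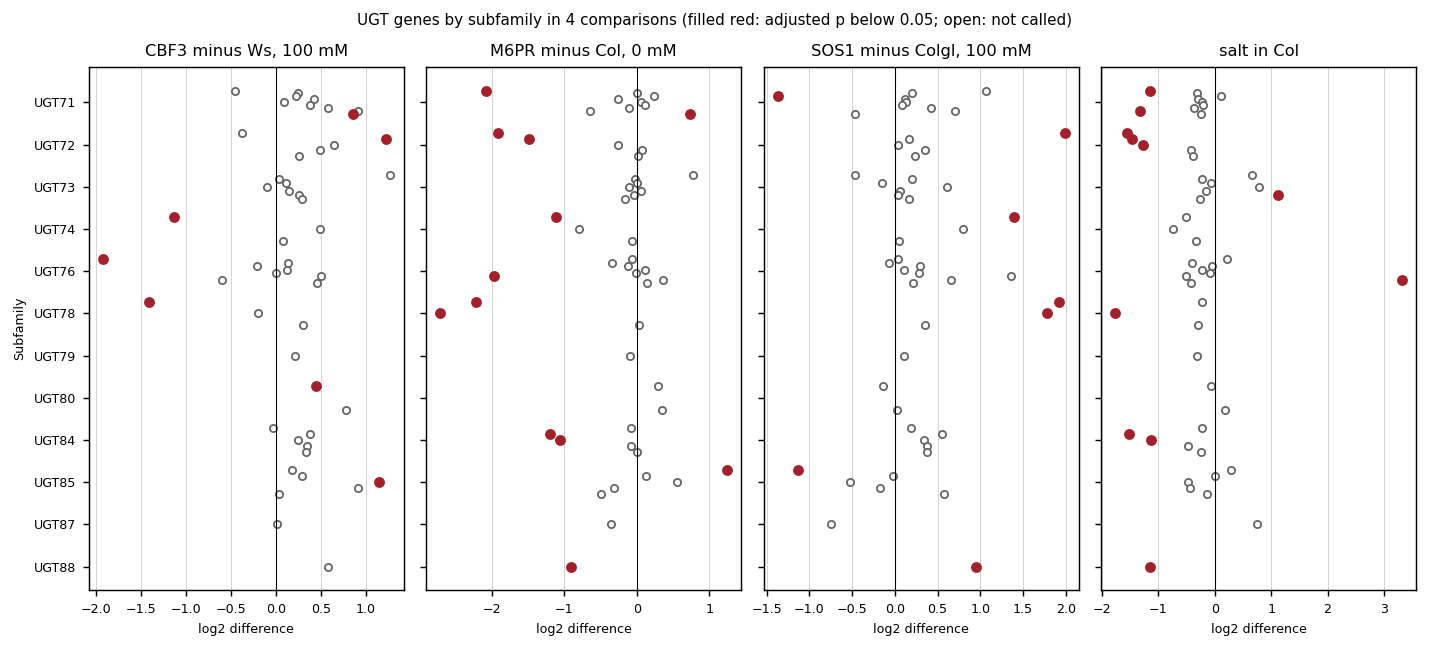
Log2 differences of the 50 UGT genes by subfamily in 4 comparisons; each point is a gene, filled red where called at an adjusted p below 0.05 and open otherwise. Both UGT78 calls lie on the left in M6PR against Col at 0 mM and on the right in SOS1 against Colgl at 100 mM, while the 7 genes of UGT73 have 1 call in the 4 comparisons.

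Subfamilies were not uniform. In M6PR against Col at 0 mM the median difference was -2.23 over the 3 genes of UGT78 and -0.27 over the 5 of UGT72, against -0.08 over the family and -0.05 over all probe sets. In SOS1 against Colgl at 100 mM the UGT78 median was 1.79, the UGT72 median 0.23 and the family median 0.20, against 0.03 over all probe sets. With salt in Col the UGT72 median was -1.28, the UGT78 median -0.29 and the family median -0.27, against -0.12 over all probe sets. When each array was centred on its own median, the last 2 of these became -0.44 and -0.28. Over the 12 group means, the 122 pairs of genes from 1 subfamily had a median correlation of 0.27 and the 1103 pairs from different subfamilies 0.21. The 14 pairs of neighbouring genes had a median of 0.54, from -0.54 for UGT85A7 and UGT85A2 to 0.86 for UGT84A3 and UGT84A4. All these pairs share the same arrays, and dim probe sets share their background.

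The response to salt differed between M6PR and Col for 8 UGT genes (16%), where 6.08% of all probe sets were called. The contrast is the salt difference in M6PR minus that in Col. It was 2.81 ± 0.51 for UGT78D2 (adjusted p = 0.0090), 2.24 ± 0.52 for UGT72B1 (0.022), 2.01 ± 0.44 for UGT84A3 (0.018), 2.01 ± 0.47 for UGT71B1 (0.023), 1.67 ± 0.34 for UGT84A4 (0.013), 1.54 ± 0.26 for UGT72B3 (0.0068) and 1.47 ± 0.35 for UGT88A1 (0.024), with adjusted p in brackets. For UGT76E12 it was -2.96 ± 0.75 (adjusted p = 0.032). The first 7 fell with salt in Col and were lower in M6PR than in Col at 0 mM, and all 3 comparisons share the untreated Col arrays. At 100 mM none of the 7 was called between M6PR and Col; for UGT78D2 the difference there was 0.10, with a 95% interval of -0.68 to 0.87. The interactions of CBF3 and of SOS1 with salt called 0 UGT genes by limma, and 0.0703% and 0% of all probe sets. At an unadjusted p below 0.05, the CBF3 interaction had 6 members and 11.3% of all probe sets, and the SOS1 interaction 2 members and 2.95%.

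**Figure D5:**
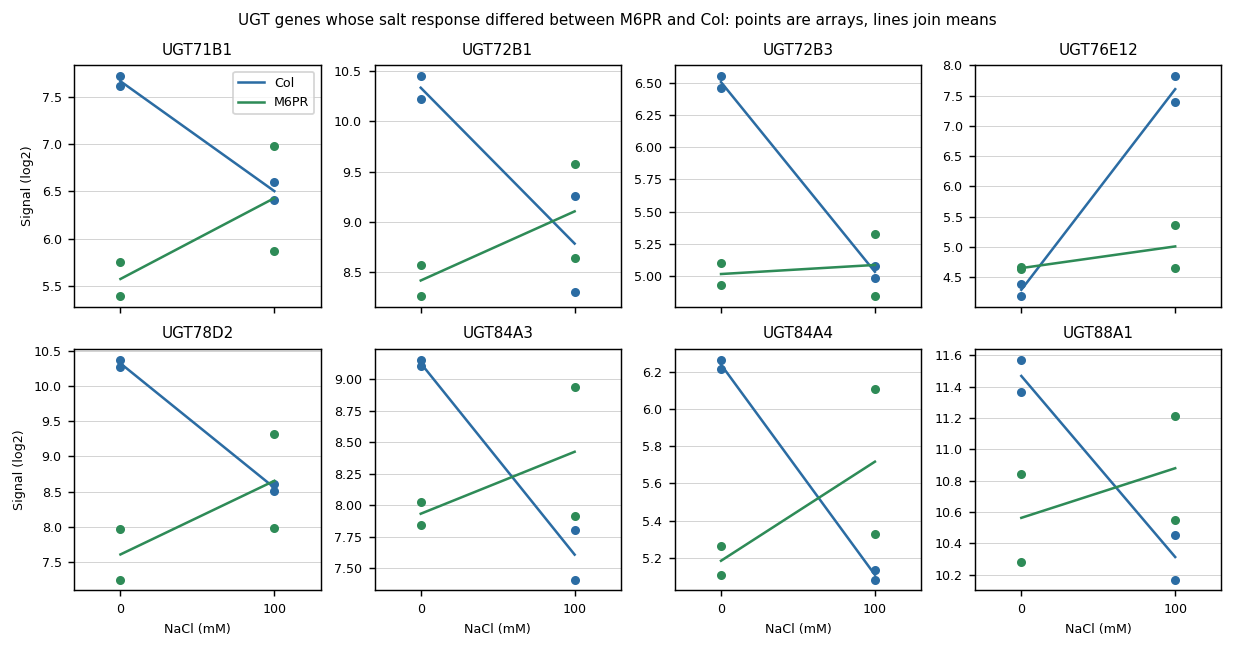
Log2 signal at 0 and 100 mM NaCl of the 8 UGT genes whose salt response differed between M6PR (green) and Col (blue); points are arrays and lines join the group means. In 7 panels the blue line falls from a high start, and for UGT76E12 it rises from 4.29 to 7.61.

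The CBF3 and SOS1 effects at 100 mM were both called, with opposite signs, for 2 genes. The contrast of the effects is the SOS1 minus Colgl difference less the CBF3 minus Ws difference. Since the 2 genes were picked by calls of opposite sign in the same fit, its call for them adds no separate support. That contrast was 3.33 ± 0.40 for UGT78D1 (adjusted p = 0.00037) and 2.52 ± 0.39 for UGT74B1 (adjusted p = 0.0022). The contrast called 8 UGT genes in all, against 4.79% of all probe sets. It was fitted with all arrays only, among them the Ws array low in dap. The others were UGT72B1 (2.36) and UGT78D2 (1.99), higher, and UGT85A4 (-1.68), UGT71B6 (-1.59), UGT71C5 (-1.33) and UGT72B3 (-1.05), lower. This contrast also holds the differences between the Ws and Colgl backgrounds in how they respond to a transgene.

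The untreated wild types Col and Colgl differed in 14 UGT genes (28%), against 14.1% of all probe sets, with 12 higher in Col (24%, against 8.43%). The largest differences were those of UGT78D2 (3.25 ± 0.36, adjusted p = 7.0e-05), UGT72B1 (2.25 ± 0.37), UGT78D1 (2.11 ± 0.28), UGT71B1 (1.94 ± 0.33), UGT74D1 (1.72 ± 0.28) and UGT76E11 (1.64 ± 0.37). UGT85A2 (-1.21 ± 0.28) and UGT71C5 (-0.81 ± 0.17) were lower in Col. Averaged over the 6 genotypes, salt called 4 genes (8%), against 10.2% of all probe sets: UGT76E12, UGT73C7 (0.44 ± 0.13) upward, UGT72B3 (-0.42 ± 0.08) and UGT84A4 (-0.33 ± 0.10) downward. The average call of UGT73C7 was lost under quantile normalization, centring or array weights, and that of UGT84A4 under quantile normalization. Neither was kept with every single array left out. Over all these fits the averages ran from 0.31 to 0.57 and from -0.40 to -0.27. Among single genotypes both genes were called with salt only in Col. In the 4 genotypes other than Col and Ws, the salt difference of UGT72B3 was between -0.14 and 0.07.

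Markers of other cell types moved with several of these results. TRY, a trichome repressor and the 1 measured gene of 3 trichome markers, fell in M6PR against Col at 0 mM (-2.73), in CBF3 against Ws (-3.00 at 0 mM and -1.97 at 100 mM), with salt in Col (-2.10) and with salt in Ws (-1.36). It was 3.05 higher in Col than in Colgl at 0 mM, and its salt response differed between M6PR and Col (2.82). Its lowest and highest group means were 4.89 in CBF3 at 100 mM and 8.22 in Ws at 0 mM. SAG101, 1 measured of 3 senescence markers, was higher in M6PR than in Col at 0 mM (0.81). It was lower in SOS1 than in Colgl at both salt levels (-1.04 and -1.02), and lower in Col than in Colgl at 0 mM (-1.23). PYK10, 1 measured of 5 root markers and a beta-glucosidase, rose with salt in Col by 4.51, from 4.30 and 4.22 to 9.92 and 7.62. In SOS1 against Colgl its difference was 2.92 at 0 mM (adjusted p = 0.089) and 3.04 at 100 mM (adjusted p = 0.0502), and in M6PR against Col at 100 mM it was -3.04 (adjusted p = 0.087), none of them called. Its SOS1 arrays read 6.43 and 7.52, then 7.24 and 6.72, above all Colgl arrays, at 4.11 and 4.01, then 3.95 and 3.92. The part of these markers in the UGT differences was not tested, and in such pooled leaves fewer cells of a type and less RNA per cell cannot be told apart.

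Genes that supply sugar or remove it were measured in part. Of 14 beta-glucosidases listed, 6 had a single-gene probe set. With salt in Col 4 of the 6 rose: PYK10, BGLU46 by 1.38, BGLU45 by 0.94 and BGLU42 by 0.90, where 10.1% of all probe sets rose. BGLU45 also rose with salt in Ws, by 0.73 (adjusted p = 0.042). BGLU45 and BGLU46 are known for releasing monolignols from their glucosides. In CBF3 against Ws at 0 mM BGLU42 was higher by 1.10 and BGLU33 differed by -0.82, both called. Of 23 genes listed for UDP-sugar supply only USP was measured, and of 15 for detoxification only GSTU25. Of 10 listed for flavonol and anthocyanin synthesis only DFR, of the anthocyanin branch, was measured, so flavonol synthesis itself was not followed. None of these 3 was called in any comparison.

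The single-gene probe sets most like the leading members in pattern over the 12 group means, of 13512 searched, were AT4G34560 (r = 0.95), AT3G17130 (0.94) and IAA29 (0.93) for UGT72B3. For UGT78D1 they were AT3G61670 (0.98), AT3G17120 (0.96) and GH9C2 (0.95). For UGT85A2 they were AT3G04210 (0.97), AT5G39020 (0.97) and AT4G19530 (0.96). These are descriptions over the same 24 arrays. Within the family the highest correlation among brighter members was 0.92, between UGT72B1 and UGT78D2, and the lowest was -0.91, between UGT74D1 and UGT85A2.

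The calls rest on 2 arrays per group. Of the 45 calls in the 12 comparisons, 13 were kept under every alternative run and with any 1 array left out. Without the 2 arrays low in dap, called members became 2 for CBF3 against Ws at 100 mM (1.4% of all probe sets), 6 for salt in Col (7.61%) and 2 for the M6PR interaction (1.61%), where UGT72B3 and UGT78D2 remained. For salt in Ws there were then 2 higher and 0 lower (1.22% of all) in place of 1 and 3, and the falls of UGT72B3, UGT72E1 and UGT85A4 were no longer called. With single arrays left out, M6PR against Col at 0 mM kept 6 to 8 calls, with UGT71B1, UGT72B1, UGT72B3, UGT76E11, UGT78D1 and UGT78D2 called each time. M6PR against Col at 100 mM gave 16 calls without M6PR replicate 2, with 16.4% of all probe sets called, and 0 without either Col replicate 1 or M6PR replicate 1. SOS1 against Colgl at 0 mM gave 8 calls without SOS1 replicate 2, with 19.5% of all probe sets called, and 0 without any other array.

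The dim members had their highest group mean in SOS1 at 0 mM for 11 of 26, and their lowest in Col at 100 mM for 11 and in Ws at 0 mM for 9. The median signal of the dimmest 9098 probe sets lay between 3.96, on replicate 2 of Col at 100 mM, and 4.33, on replicate 1 of SOS1 at 0 mM. It was 3.98 on replicate 2 of SOS1 at 0 mM, and 4.10 and 4.09 in Ws at 0 mM.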

How the data were processed

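Leaf RNA was hybridised to 24 Affymetrix arrays in 12 groups of 2. Per the submitters' processing notes, the authors used GCOS and RMA (no versions named) for the deposited log2 values. RMA normalizes arrays together, so a shift shared by most probe sets is reduced. Groups follow the sample titles, although CBF3 and M6PR samples carry a description that names another background.

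Of 22810 probe sets 64 controls were left out. The gene table gives 1 gene to 13513 of the rest, several to 503 and none to 8730, and RefSeq TAIR10.1 matched 13436 for current names. No genome build is named for the probes, so no coordinates are printed.

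limma 3.58.1 (R 4.3.3) fitted 1 mean per group over all arrays (degrees of freedom: 12 residual, 3.11 prior). Two-sided p-values were adjusted by Benjamini-Hochberg per comparison, over 22746 probe sets, and called below 0.05. SEs pool the spread of all groups. The steps were tested on simulated data. The number of arrays limits the precision, and p-values cover the spread between these pooled samples.

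Members and lists were chosen with earlier results of these data known. Genes named are all called members (for over 12, the 6 largest rises and 6 largest falls), the 2 smallest p of an interaction with no call, and the 10 smallest p over 12 groups, with values in every group; other members are named to show the rest of a list. The contrast of the SOS1 and CBF3 effects was added after the data were seen. Alternatives were quantile normalization, centring on array medians, leaving out the dimmest 40% of probe sets, array weights, a separate fit per background, the replicate number as a block, and leaving out the 2 arrays low in dap or each array in turn.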

Additional observations from a re-analysis of the deposited data

Results flagged for a closer look

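Salt responses that differed between M6PR and Col, by the interaction in limma, are listed for 8 members, as the log2 difference with salt in M6PR minus that in Col. They were 2.01 for UGT71B1, 2.24 for UGT72B1, 1.54 for UGT72B3, -2.96 for UGT76E12, 2.81 for UGT78D2, 2.01 for UGT84A3, 1.67 for UGT84A4 and 1.47 for UGT88A1. Of these, UGT72B3 and UGT78D2 passed under every alternative, and UGT72B3 also with any single array left out.

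Effects of SOS1 and of CBF3 that differed at 100 mM with opposite signs, each called on its own, were those of UGT78D1 and UGT74B1. The 2 genes were picked by these calls, so the contrast between the effects adds no separate support. Over the alternatives and single arrays left out, the CBF3 difference ran from -1.72 to -1.09 for UGT78D1 and from -1.60 to -0.65 for UGT74B1. Neither CBF3 call was kept throughout, and both were lost without the 2 arrays low in dap. That of UGT74B1 was also lost with centring and in a separate fit. The SOS1 minus Colgl difference less the CBF3 minus Ws difference was 3.33 for UGT78D1 and 2.52 for UGT74B1. The line and its background cannot be told apart in this contrast.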

How the results depend on the processing

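None of the 71 called member differences changed sign under an alternative or with an array left out, and 23 of them kept their call throughout; over the alternatives 398 of 470 values were still called, and with 1 array left out 210 of 396. The count of called members moved by over 1.5 times as follows; causes were not tested. For CBF3 against Ws at 0 mM it went from 3 to 1 with quantile normalization or centring, 5 without the dimmest probe sets or without the arrays low in dap, 0 in a separate fit and 7 with array weights. For M6PR against Col at 100 mM it went from 1 to 0 with quantile normalization, array weights, without the dimmest probe sets or without the low-dap arrays. For SOS1 against Colgl it went at 0 mM from 0 to 2 without the dimmest and 1 without the low-dap arrays, and at 100 mM from 7 to 4 in a separate fit. For salt in Colgl it went from 0 to 1 with quantile normalization and 7 with weights. In a separate fit it went to 2 for CBF3 against Ws at 100 mM, 2 for salt in Ws and 5 for the M6PR interaction. Without the low-dap arrays it went to 2, 2 and 2 for these, 6 for salt in Col and 1 for the CBF3 interaction. Single arrays left out gave 0 to 1 and 2 to 6 (CBF3 against Ws at 0 and 100 mM), 6 to 8 and 0 to 16 (M6PR), 0 to 8 and 2 to 8 (SOS1), and for salt 0 to 6 (Ws), 0 to 1 (CBF3), 5 to 9 (Col), 0 to 1 (M6PR), 0 to 0 (Colgl) and 0 to 4 (SOS1). The interactions gave 0 to 1 (CBF3), 1 to 17 (M6PR) and 0 to 1 (SOS1), Col against Colgl 8 to 9, average salt 2 to 7 and any difference 18 to 27.

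The replicate numbers were taken as names only, since deviations of same-numbered arrays correlated between -0.36 and 0.55. With the replicate block, salt in Ws called 3 members in place of 4, and the other counts were the same; UGT71C4 lost its call in Col against Colgl (adjusted p = 0.050), UGT88A1 in SOS1 against Colgl at 100 mM (adjusted p = 0.055) and UGT85A4 with salt in Ws (adjusted p = 0.055). In both Colgl comparisons another member was called in its place.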
